A study of Mus musculus with 6 samples.

Results

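The IL-10 family genes described here are 5 cytokine genes (Il10, Il19, Il20, Il22 and Il24) and 5 receptor chain genes (Il10ra, Il10rb, Il20ra, Il20rb and Il22ra1). They were taken by gene symbol from an array table of 25206 rows, 1 row per Entrez gene, and all 10 had a row. Expression was measured in mouse group 2 innate lymphoid cells (ILC2s), lymphocytes without antigen receptors that make type 2 cytokines. The lines came from C57BL/6J mice and were kept in IL-2 and IL-33, each at 10 ng/ml. In the Cbfb knockout group the cells carried LentiV2CRISPRGFP lentivirus with guides against CBFβ, and in the control group they carried the same vector with a non-target guide. Cells of both groups were therefore transduced, and were sorted as GFP+ at 6 days after transduction. Each group has 3 arrays. The labels name no clones, do not give the number of guides or lines, and give no culture or animal for a replicate. CBFβ binds RUNX transcription factors and strengthens their hold on DNA, and the comparison asks how its loss alters gene expression in activated ILC2s.

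Cytokines of the IL-10 family signal through paired chains of the class II cytokine receptor family, which pass the signal to JAK kinases and chiefly to STAT3. IL-10 restrains inflammation and binds the chains encoded by Il10ra and Il10rb. IL-22 acts on epithelial cells through the chains of Il22ra1 and Il10rb, and IL-19, IL-20 and IL-24 act mainly on epithelial and other tissue cells through the chains of Il20ra and Il20rb. The chain of Il22ra1 can take the place of that of Il20ra for IL-20 and IL-24. Activated ILC2s can make IL-10 as well as the type 2 cytokines.

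The genes Il24, Il20, Il19 and Il10 lie next to each other in this order on chromosome 1, with no other measured protein-coding gene between them, and Il20 and Il19 stand between the pair with the largest differences of the family. RefSeq promoter windows (GRCm38.p6, 250 bases before to 50 after an annotated start) were at hand for 6 of the 10 members, namely Il19, Il20, Il22, Il20ra, Il20rb and Il22ra1. Il10, Il24, Il10ra and Il10rb had no entry. The windows were searched on both strands for TGTGGT, the core letters of the RUNX motif, which 16.8% of all 32851 windows of this length hold. Il19 and Il20 held it and the other 4 members did not. These windows are shown because CBFβ acts through RUNX proteins and because the genes lie within the Il10 cluster. Capitals mark the match, which in Il19 reads on the opposite strand and begins at position -20 from the start and in Il20 begins at -165. The Il19 window is chr1:130940066-130940365 and the Il20 window chr1:130911247-130911546, both from the minus strand and printed 5′ to 3′.
Il19: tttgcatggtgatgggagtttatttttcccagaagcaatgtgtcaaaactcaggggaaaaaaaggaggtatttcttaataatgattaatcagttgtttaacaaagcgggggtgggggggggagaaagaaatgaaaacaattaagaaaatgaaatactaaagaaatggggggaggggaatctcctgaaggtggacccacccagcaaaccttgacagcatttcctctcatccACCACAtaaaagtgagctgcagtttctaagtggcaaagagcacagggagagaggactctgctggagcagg
Il20: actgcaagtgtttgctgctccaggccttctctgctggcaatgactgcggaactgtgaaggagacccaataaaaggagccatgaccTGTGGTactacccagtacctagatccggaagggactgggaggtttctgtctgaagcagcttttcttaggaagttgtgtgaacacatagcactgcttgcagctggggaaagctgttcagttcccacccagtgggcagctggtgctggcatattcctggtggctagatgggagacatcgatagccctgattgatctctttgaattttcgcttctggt
A match of these letters is no measure of binding. In the same windows the AP-1 motif TGANTCA stood once in Il20ra and once in Il22ra1, and 7.81% of all windows hold it. The STAT motif TTCNNNGAA stood once in Il19 and in no other of the 6 members' windows, and 8.3% of all windows hold it. GATA letters (TGATAA or AGATAA) stood in the windows of Il22, Il20ra, Il20rb and Il22ra1, against 18.6% of all windows, and the NF-kB motif searched in none of the 6, against 0.411%. The motifs may overlap in a window, and each palindrome was counted once.

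All values are log2 expression values, and the array medians lay between 3.57 and 3.63. No pair of columns was identical. Arrays of the same group correlated across genes at 0.9946 to 0.996 (Pearson), and arrays of different groups at 0.988 to 0.9908. The targeted gene Cbfb read 7.83 ± 0.12 in knockout arrays and 8.65 ± 0.11 in control arrays (SD, n = 3; limma adjusted p = 0.00205), and the RUNX gene Runx1 read 8.05 ± 0.18 and 6.78 ± 0.22 in knockout and control arrays (adjusted p = 0.00121). Of 12 measured ILC2 markers 1 was higher in the knockout, 4 were lower and 7 did not pass. Over all rows 5.51% were higher and 4.24% lower. Rora differed by 2.22, Icos by -0.78, Il7r by -0.56, Id2 by -0.35 and Il5 by -0.33 (limma adjusted p = 0.000562, 0.00121, 0.00966, 0.0352 and 0.0349). Il5 missed the threshold whichever array was left out, and Id2 without any 1 array other than control replicate 1 (limma adjusted p up to 0.116 and 0.126). Among those that did not pass, Gata3 read 10.68 and 10.58 and Klrg1 11.36 and 11.36 in knockout and control arrays, while Thy1 and Il17rb lay under 3.6, the median of all group means. Arg1 differed by -0.037, with overlap. Il13 differed by -0.20 (95% interval -0.38 to -0.030) and Il2ra by -0.23 (95% interval -0.42 to -0.042), without overlap. Both passed in some alternative fits, such as that of rows above the median level alone. Of 8 T and regulatory T cell markers 2 were lower in the knockout, Trac with a difference of -0.61 and Foxp3 with -0.48 (limma adjusted p = 0.00324 and 0.0123). The mean level of these 8 markers was 3.68 to 3.79 over the knockout arrays and 3.88 to 3.96 over the control arrays. Cd3e, Cd3d, Cd4 and Cd5 lay under 3.6 and the other 4 above it. Among these, Cd3g read 5.31 and 5.16 and Cd8a 4.14 and 4.70 in knockout and control arrays, and neither passed. Cd8a did pass without control replicate 2 (limma adjusted p = 0.0096). Without control replicate 2 Foxp3 missed the threshold (limma adjusted p = 0.0559). Among the 9 markers of mast cells and basophils, Cpa3 read 3.96 ± 0.14 in knockout and 6.87 ± 0.26 in control arrays (limma adjusted p = 7.06e-05), a difference of -2.91 that is larger than those of Il10 and Il24. Hdc read 5.39 ± 0.18 in knockout and 3.93 ± 0.13 in control arrays (limma adjusted p = 0.000367), and the other 7 did not pass. The mean level of these 9 markers was 2.81 to 2.91 over the knockout arrays and 3.03 to 3.10 over the control arrays. No gene passed the test among 8 macrophage and myeloid, 5 type 3 lymphocyte, 4 B cell and 5 epithelial markers. The part of these cell types in the values below was not tested.

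Il10 and Il24 were the members with the largest differences, and both were lower in the knockout. Il10rb was higher, Il10ra was lower by a smaller amount, and the other 6 members were not called. In a limma fit over all 25206 rows with an adjusted p threshold of 0.05, 4 of the 10 members were called, 3 lower and 1 higher, where 9.75% of all rows were called. The 10 genes were chosen by symbol, with the log2 differences between these same arrays (among them those of Il10 and Il24) already known, so the differences of members and their counts are a description and no p is given for them. The median difference of the 10 members was -0.13, beside -0.0067 over all rows. In 5 of the 10 members the knockout and control arrays did not overlap, which held for 27.5% of all rows.

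**Figure D1:**
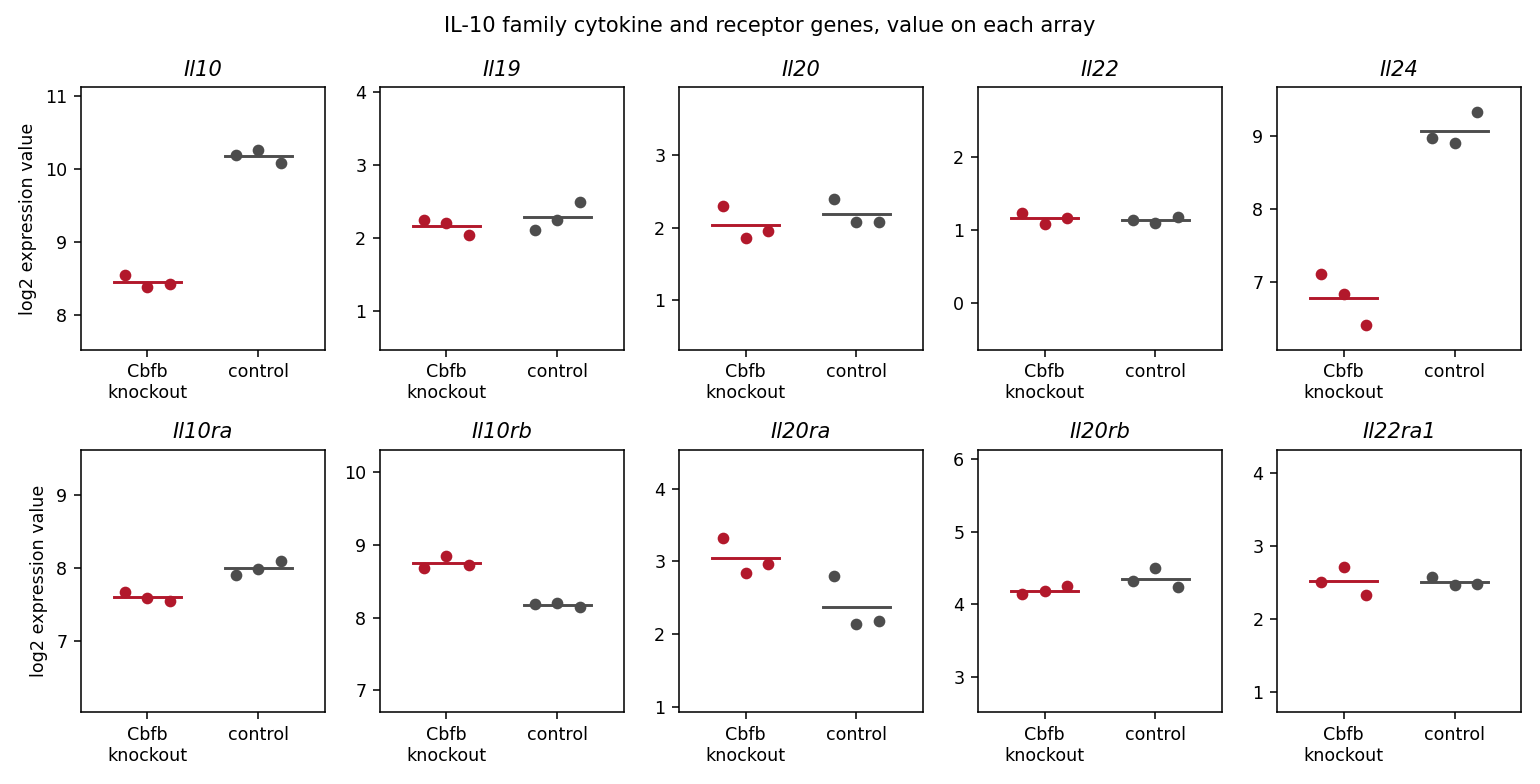
Log2 expression value of each member gene on each array, with knockout arrays (red) left of control arrays (grey) in order of replicate number and a line at each group mean. Each panel spans the same range of log2 units but starts at its own level, and the groups stand apart for Il10, Il24, Il10ra, Il10rb and Il20ra.

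Il10 encodes the founding member of the family, a cytokine that restrains macrophages, dendritic cells and T cells. It read 8.55, 8.38 and 8.42 in the knockout arrays, against 10.19, 10.27 and 10.08 in the control arrays. All knockout arrays lay below all control arrays, and the arrays of a group lay close together. Its means were 8.45 ± 0.089 in knockout and 10.18 ± 0.095 in control arrays (SD, n = 3), a difference of -1.73 with a standard error of 0.091 and a 95% interval of -1.94 to -1.52. On a linear scale the knockout signal was 30.1% of the control signal. Among the differences of all 25206 rows it ranked at position 23 from the lowest. In bulk samples fewer cells that express a gene and less RNA per cell cannot be told apart.

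Il24 encodes a cytokine that T helper 2 cells make and that acts on epithelial cells. It read 7.11, 6.83 and 6.41 in the knockout arrays, against 8.97, 8.90 and 9.33 in the control arrays. The groups did not overlap, although replicate 3 was the lowest of the knockout arrays and the highest of the control arrays. The means were 6.78 ± 0.35 in knockout and 9.07 ± 0.23 in control arrays, a difference of -2.28 with a standard error of 0.19 and a 95% interval of -2.71 to -1.85. The knockout signal was 20.5% of the control signal, and the row ranked at position 10 from the lowest of all differences. Within each array, Il24 minus Il10 was -1.44, -1.55 and -2.01 in the knockout arrays and -1.22, -1.37 and -0.75 in the control arrays. The mean of this within-array value was -1.67 ± 0.30 in knockout and -1.11 ± 0.32 in control arrays. The gap of -0.55 was not tested and shrank to -0.38 without knockout replicate 3, to -0.37 without control replicate 3 and to -0.20 without both, omissions chosen after the values were seen. The 95% intervals of the Il24 and Il10 differences overlap.

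Il19 and Il20, the cytokine genes between Il24 and Il10, read under 3.6 on every array. Il19 had 2.25, 2.20 and 2.04 in knockout and 2.11, 2.25 and 2.49 in control arrays. Il20 had 2.30, 1.86 and 1.96 in knockout and 2.39, 2.08 and 2.08 in control arrays. The groups overlapped for both genes. Their differences were -0.12 (95% interval -0.39 to 0.15) for Il19 and -0.14 (95% interval -0.46 to 0.18) for Il20. The values carry no detection calls, so signal cannot be told from background at this level and a change could be understated.

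Il22, whose product supports epithelial barriers and which type 3 innate lymphoid cells are known for, read 1.23, 1.08 and 1.16 in knockout and 1.13, 1.09 and 1.17 in control arrays. The groups overlapped within a narrow range, with a difference of 0.027 (95% interval -0.16 to 0.21), and all values were far under 3.6. A close copy of Il22, Iltifb, lies beside it on chromosome 10 and read 1.26 ± 0.35 in knockout and 1.23 ± 0.20 in control arrays. Whether the probes of these copies take up each other's transcripts cannot be seen from the values.

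**Figure D2:**
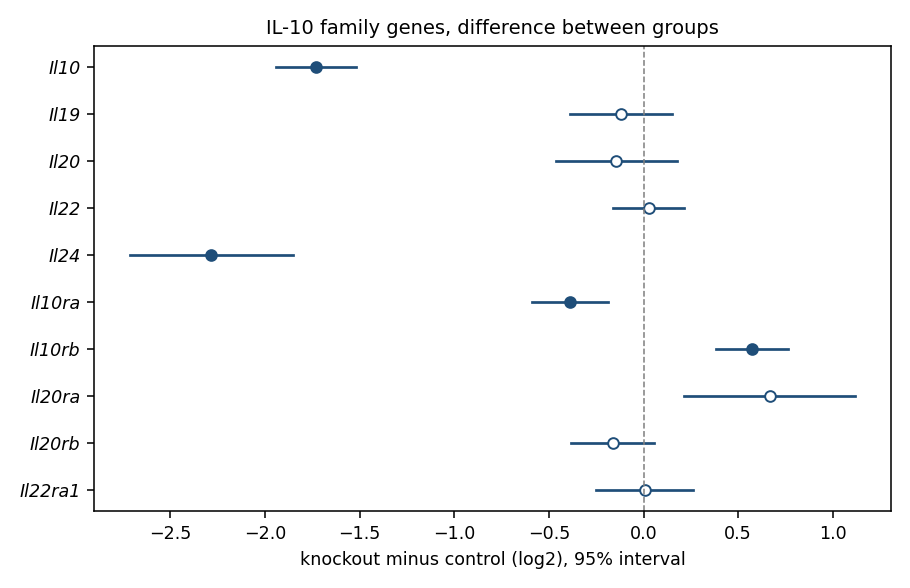
Difference between the mean of 3 knockout and 3 control arrays for each member gene on the log2 scale, with its 95% interval from the limma fit over all rows; filled points were called at an adjusted p under 0.05 and open points were not. Il24 (-2.28) and Il10 (-1.73) lie far left of 0, Il10ra (-0.39) lies slightly left, and Il10rb (0.57) lies right of it.

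The chains of the IL-10 receptor differed in opposite directions. Il10ra, the ligand-binding chain that leukocytes express, read 7.67, 7.59 and 7.55 in knockout arrays, against 7.90, 7.99 and 8.09 in control arrays. Every knockout array was below every control array, and the difference was -0.39 with a standard error of 0.087 (95% interval -0.59 to -0.19; 76.3% of the control signal). Il10ra was called in the fit of all 6 arrays but lost the call without control replicate 2 or 3 or without any single knockout array, with differences of -0.44 to -0.34 when 1 array was left out.

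Il10rb encodes the chain shared by the receptors for IL-10, IL-22 and the type III interferons. It read 8.68, 8.85 and 8.72 in knockout arrays, against 8.18, 8.20 and 8.15 in control arrays. The knockout arrays were all higher, by 0.57 in the mean with a standard error of 0.083 (95% interval 0.38 to 0.76; 1.49-fold). Within each array, Il10rb minus Il10ra was 1.01, 1.26 and 1.17 in the knockout arrays and 0.28, 0.21 and 0.06 in the control arrays. The group means of this value lay 0.96 apart on the log2 scale, with no overlap between the groups, and the gap was not tested. These are array signals, which do not give the ratio of the transcripts or of the proteins.

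Il20ra, Il20rb and Il22ra1, whose chains are best known from epithelial cells, read lower than Il10ra and Il10rb on every array. Il20ra, a chain of the receptor for IL-19, IL-20 and IL-24, read 3.32, 2.84 and 2.96 in knockout and 2.80, 2.14 and 2.18 in control arrays. The knockout arrays were all higher, though the lowest of them (2.84) only just exceeded the highest control array (2.80), and replicate 1 was the highest array of each group. The difference of 0.67 had a standard error of 0.20 (95% interval 0.22 to 1.12) and was not called, though it was called without control replicate 1, where it was 0.88. Il20rb, its partner chain, read 4.14, 4.18 and 4.25 in knockout and 4.32, 4.50 and 4.24 in control arrays, with overlap and a difference of -0.16 (95% interval -0.38 to 0.05). Il22ra1, the ligand-binding chain of the IL-22 receptor, read 2.50, 2.71 and 2.32 in knockout and 2.57, 2.46 and 2.48 in control arrays, a difference of 0.0067 (95% interval -0.25 to 0.26). Il20ra and Il22ra1 lay under 3.6 on every array and Il20rb above it.

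The genes around the members were read in the order of the RefSeq gene table, with 5 measured protein-coding genes on each side of the Il10 cluster and 3 on each side of every other member. Of 46 such neighbours 6 were higher and 1 was lower in the knockout, where 5.51% of all rows were higher and 4.24% lower. Their median difference was -0.032. Beside Il10, Mapkapk2, the gene of a kinase downstream of p38 that stabilises cytokine mRNAs, read 9.11, 9.08 and 8.97 in knockout and 9.35, 9.41 and 9.45 in control arrays. It was lower (difference -0.35, limma adjusted p = 0.0346), a call lost whichever array was left out (adjusted p 0.0574 to 0.113). Beside Il24, Fcmr, the gene of a receptor for IgM, read 3.60, 3.88 and 3.73 in knockout and 4.14, 3.75 and 4.12 in control arrays and did not pass (limma adjusted p = 0.272). At the far end of the flank that begins with Mapkapk2, Ikbke, which encodes a kinase of the innate immune response, was higher by 0.93 (6.43 ± 0.055 in knockout and 5.49 ± 0.15 in control arrays; limma adjusted p = 0.00113). The other 7 flanking genes and Fcmr did not pass, with differences between -0.27 and -0.0033. Apart from Mapkapk2, no flanking gene was called lower.

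Il10rb lies on chromosome 16 in a row of class II cytokine receptor genes, between Ifnar2 and Ifnar1, which encode the chains of the type I interferon receptor, with Ifngr2, a chain of the interferon gamma receptor, next. All 3 of these neighbours rose in the knockout. Ifnar2 read 8.39, 8.41 and 8.51 in knockout and 7.96, 8.04 and 7.94 in control arrays, a difference of 0.46 (limma adjusted p = 0.0115). Ifnar1 read 8.56, 8.68 and 8.74 in knockout and 8.21, 8.21 and 8.28 in control arrays, a difference of 0.43 (limma adjusted p = 0.0175). Ifngr2 read 7.58, 7.64 and 7.44 in knockout and 7.02, 7.06 and 6.91 in control arrays, a difference of 0.56 (limma adjusted p = 0.00794). For all 3, every knockout array was above every control array. The genes at the ends of this row did not pass, Olig1 with 0.08 and Tmem50b with 0.033 (adjusted p = 0.746 and 0.864). Ifnar1 missed the threshold in the fits without knockout replicate 2 or 3 or without control replicate 1 or 2 (limma adjusted p up to 0.0705), and Ifnar2 and Ifngr2 passed in all 6 such fits. The RefSeq promoter windows of Ifnar2, Ifnar1 and Ifngr2 held no TGTGGT, which 16.8% of all windows hold. The STAT motif stood once in Ifnar2 and once in Ifnar1, and 8.3% of all windows hold it. The NF-kB motif stood once in Ifngr2, against 0.411% of all windows. Binding was not tested.

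**Figure D3:**
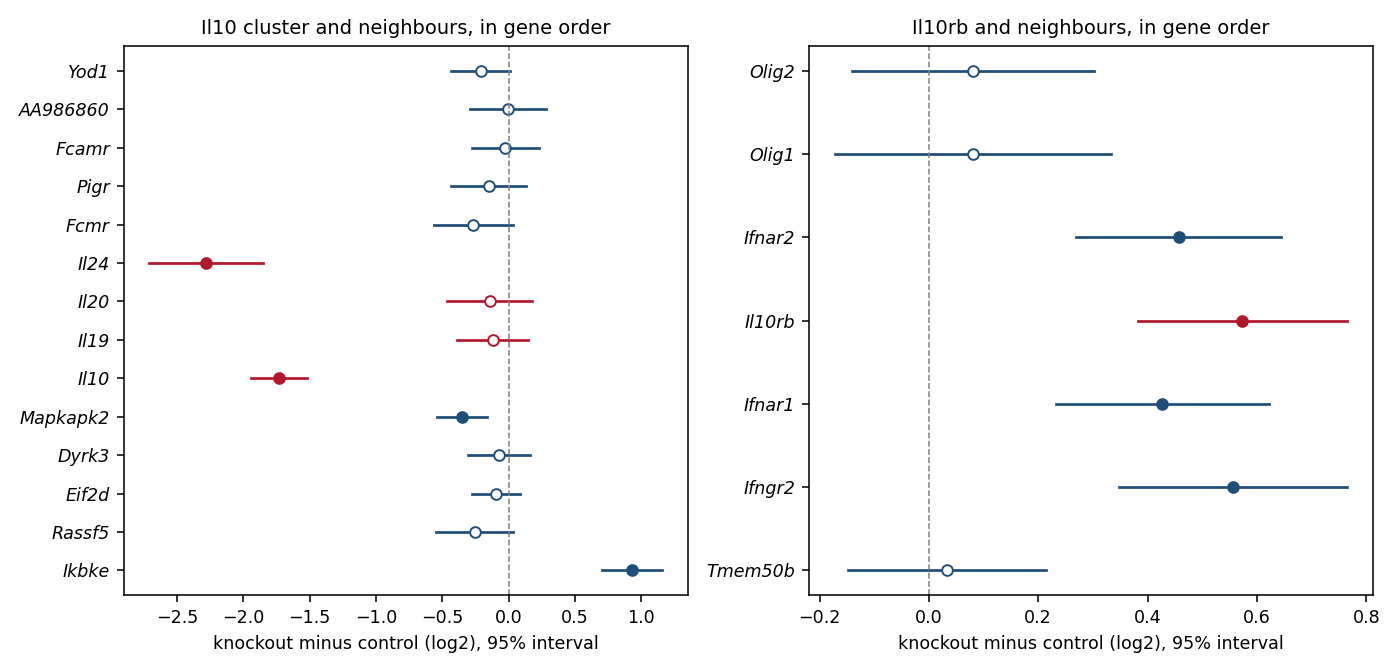
Difference between knockout and control arrays on the log2 scale, with its 95% interval, for genes in chromosome order around the Il10 cluster (left) and Il10rb (right); members are red, neighbours blue, and filled points were called at an adjusted p under 0.05. The horizontal scales differ. Il24 and Il10 stand far below 0 with Il20 and Il19 between them near 0, and Ifnar2, Il10rb, Ifnar1 and Ifngr2 lie together between 0.43 and 0.57.

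Of the 9 measured other class II receptors and their ligands, these 3 rose and the other 6 did not pass, where 5.51% of all rows were higher. Ifngr1, the other chain of the interferon gamma receptor, which on chromosome 10 is parted from Il20ra by Il22ra2, read 7.75 ± 0.12 in knockout and 8.01 ± 0.10 in control arrays and did not pass (difference -0.26, limma adjusted p = 0.161). Il22ra2, the gene of a soluble decoy receptor for IL-22, read 1.57 ± 0.040 in knockout and 1.75 ± 0.13 in control arrays (adjusted p = 0.283). Ifnlr1, the chain that pairs with the product of Il10rb for type III interferons, lies beside Il22ra1 and read 2.98 ± 0.14 in knockout and 2.68 ± 0.27 in control arrays (adjusted p = 0.269). Both were under 3.6. Near Il20ra, Slc35d3, a transporter family gene, rose by 0.78 (4.63 ± 0.067 in knockout and 3.84 ± 0.091 in control arrays; limma adjusted p = 0.0015). Beside Il20rb, the adaptor gene Nck1 was higher by 0.33 (adjusted p = 0.0426), a call lost whichever array was left out (adjusted p 0.0741 to 0.137).

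Genes of the JAK and STAT pathway, which the IL-10 receptor uses in part, moved in both directions. Of 9 measured signalling genes 2 rose, 2 fell and 5 did not pass, with a median difference of -0.063. Shares over all rows were 5.51% higher and 4.24% lower. These shares are not matched for level, and all 9 had a mean over all arrays above 3.6. The kinases that the IL-10 receptor uses, Jak1 and Tyk2, read 10.36 ± 0.032 and 7.18 ± 0.044 in knockout arrays and 10.43 ± 0.11 and 7.05 ± 0.072 in control arrays, and neither passed (limma adjusted p = 0.707 and 0.413). Stat3, the main transducer, differed by -0.20 (95% interval -0.39 to -0.016) and did not pass (adjusted p = 0.181). Socs3, a STAT3-induced feedback inhibitor of cytokine receptors, read 9.50, 9.62 and 9.47 in knockout and 10.16, 10.05 and 9.88 in control arrays and fell (difference -0.50, limma adjusted p = 0.0174). Socs1, another feedback inhibitor, read 8.52, 8.45 and 8.41 in knockout and 8.14, 7.85 and 7.96 in control arrays and rose (difference 0.48, adjusted p = 0.0199). Pias3, which encodes an inhibitor of STAT3, rose by 0.72 (6.76 ± 0.096 in knockout and 6.04 ± 0.049 in control arrays; adjusted p = 0.0021). Jak2, counted among the 9 although it is a kinase of other cytokine receptors, fell by 0.38 on the log2 scale (adjusted p = 0.0383). Socs3 missed the threshold without knockout replicate 1 or 3 or control replicate 1 or 2, Socs1 without knockout replicate 1 or 2 or control replicate 2 or 3, and Jak2 without any 1 array other than knockout replicate 1 (limma adjusted p up to 0.0671, 0.0767 and 0.127).

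Genes that IL-10 and STAT3 are known to induce in macrophages did not move as 1 group. Of 10 measured, 4 fell, 1 rose and 5 did not pass, with a median of -0.11. Shares over all rows were 4.24% lower and 5.51% higher, and 9 of the 10 had a mean over all arrays above 3.6. Besides Socs3, the falls were those of Il4ra, the IL-4 receptor chain gene (9.33 ± 0.057 in knockout and 9.84 ± 0.040 in control arrays; limma adjusted p = 0.00656), the heme oxygenase gene Hmox1 (difference -0.44, adjusted p = 0.0157) and the transcription factor gene Nfil3 (difference -0.36, adjusted p = 0.0329). Ddit4, which encodes an inhibitor of the growth kinase mTOR, rose by 0.89 (6.81 ± 0.10 in knockout and 5.92 ± 0.026 in control arrays; adjusted p = 0.000766). Hmox1 missed the threshold without knockout replicate 1 or 2 or control replicate 2 or 3 (adjusted p up to 0.0615), and Nfil3 whichever array was left out (adjusted p 0.0540 to 0.1002). Of 8 measured genes that IL-20 and IL-22 are known to induce in epithelial cells, Lcn2, an iron-scavenging protein gene, was higher (5.56 ± 0.15 in knockout and 4.58 ± 0.26 in control arrays; adjusted p = 0.00457) and Muc1, a membrane mucin gene, was lower (5.88 ± 0.042 in knockout and 7.00 ± 0.070 in control arrays; adjusted p = 0.000232). The other 6, Reg3b, Reg3g, S100a8, S100a9, Fut2 and Saa3, read under 3.6 in both groups and did not pass.

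Among transcription factors tied to Il10 more fell than rose, and most did not pass. Of 27 measured, 10 fell, 1 rose and 16 did not pass, with a median difference of -0.26, beside shares of 4.24% lower and 5.51% higher over all rows. These shares are not matched for level, since all 27 had a mean above 3.6 but only 12593 of the 25206 rows did. In the fit of rows above the median level alone 3518 rows were called, against 2457 in the fit of all rows. Whether the factors fell more often than other rows of their level was not tested. Among the 27 factors the largest difference was that of Rel, which encodes c-Rel of the NF-κB family (6.62 ± 0.29 in knockout and 9.28 ± 0.34 in control arrays; limma adjusted p = 0.000245). Irf4, a factor that works with AP-1 proteins in lymphocytes, read 8.46, 8.30 and 8.20 in knockout and 9.62, 9.68 and 9.68 in control arrays, a difference of -1.34 (adjusted p = 0.000194). Every knockout array was lower, and the control arrays lay within a narrow range. Ets1, a factor of lymphocyte development, fell by 0.73 on the log2 scale (8.52 ± 0.055 in knockout and 9.26 ± 0.042 in control arrays; adjusted p = 0.00129). Maf, the gene of c-MAF, a direct activator of Il10 in T cells and macrophages, was the 1 factor that rose. It read 9.95, 9.94 and 9.98 in knockout and 9.07, 8.98 and 9.01 in control arrays, a difference of 0.94 (adjusted p = 0.000415), opposite in sign to that of Il10. The other falls were those of Egr2 (-1.99), Jund (-0.77), Junb (-0.74), Bhlhe40 (-0.57), Ahr (-0.52), Prdm1 (-0.49) and Nfil3 (-0.36). Prdm1, which encodes the factor Blimp-1, missed the threshold without control replicate 2 (limma adjusted p = 0.0606), and Bhlhe40, known in mice as a repressor of Il10, without control replicate 1 or 2 (adjusted p 0.0558 and 0.0612). Gata3, Batf and Stat6 did not pass.

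**Figure D4:**
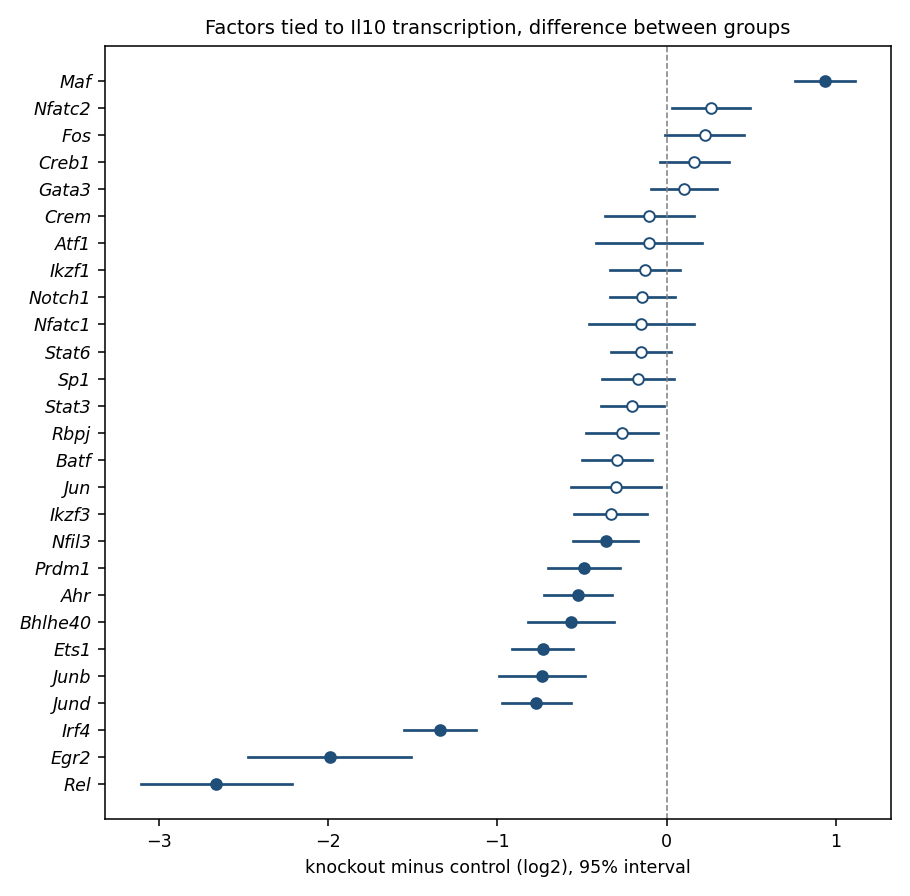
Difference between knockout and control arrays on the log2 scale, with its 95% interval, for 27 measured factors tied to Il10 transcription, sorted from high to low; filled points were called at an adjusted p under 0.05. Maf (0.94) is the 1 filled point right of 0, and 10 filled points lie left of it, with Rel at -2.66.

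Among 11 measured factors and receptors tied to Il22, 4 rose (Rora, Maf, Il1r1 and Arnt) and Ahr fell, while Il22 itself was not called. Shares over all rows were 5.51% higher and 4.24% lower, and 8 of the 11 had a mean over all arrays above 3.6. Rora, the orphan nuclear receptor gene shared with type 3 cells, had the largest difference (5.53 ± 0.29 in knockout and 3.32 ± 0.35 in control arrays; limma adjusted p = 0.000562), with a control mean under 3.6. Ahr, the aryl hydrocarbon receptor gene that type 3 cells need for IL-22, fell by 0.52 on the log2 scale (adjusted p = 0.00839), and Arnt, the gene of its partner, was higher by 0.35 (adjusted p = 0.0264), a call lost whichever array was left out (adjusted p 0.0556 to 0.0896). Il1r1 read 2.76 ± 0.14 in knockout and 2.24 ± 0.070 in control arrays, both under 3.6. It missed the threshold without control replicate 3 (limma adjusted p = 0.0515) and in the test without moderation. The IL-23 receptor gene Il23r differed by 0.087 at values under 3.6 (adjusted p = 0.745).

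Rows most like Il10 and Il24 over the 6 arrays were taken by Pearson correlation among 11832 rows with a symbol and a mean above 3.6. Those nearest to Il10 were Nlrp3, Pitpnb, Cxcr6, Psmd1 and Ctss, with r of 0.998 to 0.999. The inflammasome sensor gene Nlrp3 differed by -2.46, the lysosomal protease gene Ctss by -1.32 and the chemokine receptor gene Cxcr6 by -1.12. Pitpnb, a lipid transfer protein gene, differed by -0.36 and the proteasome gene Psmd1 by -0.30. Those nearest to Il24 were Rabl3, Rcl1, Glrx3, Frmd6 and Wdr43, with r of at least 0.9956 and differences of -0.62 to -0.13. In all, 639 rows had r over 0.95 with Il10 and 487 with Il24, and all points share the difference between the groups, so these values are a description of 6 arrays.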

How the data were processed

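Total RNA from 3 Cbfb knockout and 3 control samples was hybridised to single-colour arrays, per the labels' protocols. The deposited values are log2 expression values. RMA and limma 3.14.4 are listed in the submitters' processing notes, with no role given. The log2 scale was read from the values (0.66 to 12.51). RMA normalises arrays to a common distribution, so it can hide a shift common to most genes, and it compresses differences near background. The genome build and the probe sets are not given in the sources used here. All 23185 rows with a symbol were named through Entrez numbers in a RefSeq table (GRCm38.p6), and 2021 rows had none.

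Values were used as deposited, without a filter. The test was limma 3.58.1 in R 4.3.3 (knockout minus control, two-sided, Benjamini-Hochberg over all 25206 rows, threshold 0.05), without a block. P-values reflect the spread among these samples alone, which can be technical, and the number of arrays limits the precision. On simulated data of this comparison with 25206 rows it recovered 16.4% of 67 changes of 0.5, 89.6% of 67 of 1 and 100% of 66 of 2 on the log2 scale, with 10 false calls among 147. No other rows were changed, far fewer than the 2457 called in the real arrays, and spreads were drawn without regard to level. The Benjamini-Hochberg cutoff depends on how many rows change, so these shares need not hold for the real arrays. Members, lists and tests were chosen with earlier results of these data known. Named were all members, up to 4 genes per list with the smallest adjusted p and those needed to show which list genes are low, neighbours beside a member or past the threshold, and the 5 rows most like Il10 and Il24; further list genes were named after their values were seen. Lists were described by counts and medians, with no test of a list. Some listed genes are not reported here, and counts are over the measured genes of a list. Alternatives were a block for the replicate number, omission of each array, quantile normalisation or centring again, a filter on low rows, a trended and robust prior, array weights, a test without moderation, other thresholds and named rows alone.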

Additional observations from a re-analysis of the deposited data

How the results depend on the processing

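The number of members called was 3 to 5 over the fits that left out 1 array and 3 to 5 over the other 10 alternatives. Il10, Il24 and Il10rb were called in all 16 alternatives with their direction, with differences of -1.78 to -1.69, -2.45 to -2.10 and 0.52 to 0.62. The alternatives refit the same arrays, whose differences were known when the members were chosen, so these calls remain a description. Il10ra kept its direction in all 16 and its call in 8 of them. The groups of Il10, Il24, Il10rb and Il10ra did not overlap, so leaving out 1 array could not change these directions. Changes of the threshold, prior or moderation leave a difference as it is, and a threshold of 0.1 can lose no call. Il20ra was called in 5 of 15 alternatives, which were the block, the fit without control replicate 1, the trended and robust prior, array weights and the threshold of 0.1. The other 5 members were called in none, and 5 low members could not be fitted with rows above the median level alone. The replicate numbers were not found to pair samples, since same-numbered samples had correlations of deviations of 0.025, 0.0067 and 0.054. With the replicate block, 1745 rows, 4 members (with Il20ra in place of Il10ra), 12 list genes higher and 18 lower, and 5 neighbours were called, against 2457, 4, 13, 23 and 7. Over the fits that left out 1 array these counts were 1307 to 1837 rows, 10 to 11 list genes higher, 15 to 19 lower and 4 to 5 neighbours. At a threshold of 0.01 they were 966 rows, 8 list genes higher, 14 lower and 3 neighbours, by construction of the stricter threshold. Without moderation 1254 rows were called, and the cause was not tested. Of 40 list and neighbour genes called, 25 passed in all fits that left out 1 array and 5 in none of them (Arnt, Il5, Mapkapk2, Nck1 and Nfil3). No call changed direction in any alternative, though changes of the threshold, prior or moderation could not change a direction. Low values without detection calls limit what can be said of Il19, Il20, Il22, Il20ra and Il22ra1.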
